A study of Mus musculus with 12 samples.

Results

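DNA replication and E2F genes were followed through small interfering RNA (siRNA) knockdown of Esrra and Hcfc1 in Hepa 1-6, a mouse hepatoma cell line. The set held 51 genes, found by gene name among the 24326 genes of the deposited count tables: those of origin licensing and firing, the replicative polymerases, the clamp and its loader, nucleotide supply, chromatin assembly, cyclin E and the E2F factors. The genes were listed from their known roles, and all 51 passed the low-count filter that left 15965 genes for testing. Cells received 100 nM siRNA at the start and again at 48 h (200 nM in total) and were harvested at 96 h. The 4 groups had 3 libraries each. The control, siC, received scrambled siRNA; siERRa received a pool that targets Esrra, siHCFC1 one that targets Hcfc1, and siERRa+siHCFC1, here the combined knockdown, received both. The share of each pool in the combined dose is not given in the labels, and neither is the origin of the 3 libraries of a group from separate cultures or from one. The spread that all p-values measure is thus that among libraries, and part of it may be technical.

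Esrra encodes the orphan nuclear receptor ERRα, and Hcfc1 encodes a chromatin-associated coregulator that is recruited to promoters by DNA-binding partners, among them THAP11, ZNF143 and E2F proteins. In G1 phase the origin recognition complex, Cdc6 and Cdt1 load the ring-shaped Mcm2 to Mcm7 helicase onto origins. At S phase entry kinases, Cdc45 and the GINS complex turn it into the active helicase, and primase, polymerases α, δ and ε, the Pcna clamp and ligase copy the strands. The activating factors E2f1, E2f2 and E2f3 drive transcription of most of these genes at the transition from G1 to S phase, and E2f7 and E2f8 repress them.

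Promoter sequence is shown for 4 of the genes whose RNA changed, because their windows hold words of the 2 kinds of factor named above. Promoters of 42 of the 51 genes were found in RefSeq (GRCm38.p6), as windows from 250 bases before to 50 after each annotated start. They were searched on both strands for E2F words (TTTCCCGC, TTTCGCGC, TTTGCCGC and TTTGGCGC) and for the THAP11/ZNF143 word (ACTACA and TCCCA separated by 2 bases). The 200 bases before the start are printed 5′ to 3′ on the gene's own strand, with those words, read on either strand, in capitals.
Prim1, chr10:128015015-128015214 (+ strand): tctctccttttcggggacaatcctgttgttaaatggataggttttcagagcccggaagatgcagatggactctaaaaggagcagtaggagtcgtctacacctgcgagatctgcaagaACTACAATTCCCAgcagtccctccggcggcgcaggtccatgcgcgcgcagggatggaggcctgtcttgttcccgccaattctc
Lig1, chr7:13278626-13278825 (+ strand): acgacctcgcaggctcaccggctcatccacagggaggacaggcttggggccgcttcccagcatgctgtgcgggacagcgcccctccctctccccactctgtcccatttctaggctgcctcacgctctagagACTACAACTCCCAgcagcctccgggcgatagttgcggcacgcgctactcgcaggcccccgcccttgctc
Mcm5, chr8:75109309-75109508 (+ strand): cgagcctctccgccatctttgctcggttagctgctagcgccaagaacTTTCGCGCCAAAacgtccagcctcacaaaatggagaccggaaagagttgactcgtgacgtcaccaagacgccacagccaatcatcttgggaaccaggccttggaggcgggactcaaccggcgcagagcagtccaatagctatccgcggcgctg
Mcm6, chr1:128359706-128359905 (- strand): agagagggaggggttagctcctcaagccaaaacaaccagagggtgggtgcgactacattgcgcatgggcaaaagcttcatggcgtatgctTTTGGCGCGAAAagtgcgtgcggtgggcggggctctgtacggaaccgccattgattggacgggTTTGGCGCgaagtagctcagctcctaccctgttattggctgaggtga
Prim1 and Lig1 carry the THAP11/ZNF143 word 83 and 69 bases before their starts. Lig1 has more than 1 start in RefSeq, and only the window printed here holds the word. That window lies within the gene's annotated span, 13277283 to 13311433. The Mcm5 window has 2 overlapping E2F words on opposite strands, beginning 153 and 149 bases before the start. That of Mcm6 has an overlapping pair, beginning at 110 and 106 bases, and another word at 47 bases. Lig1 also has an E2F word 27 bases after the start of its printed window's promoter, outside the printed stretch. No E2F word was found in the windows of E2f1, Pold2 or Prim1, and Prim2 was not matched. The E2f1 window (chromosome 2, 154569377 to 154569676, - strand) lies within the gene's annotated span, 154559407 to 154569892. Sequence before the start of that span was thus not searched for E2f1.

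An E2F word was held by 17 of the 42 matched genes (40.5%), against 2.6% of 27025 genes with a promoter in RefSeq and 4.45% of the 10628 tested genes matched to one. The 17 were spread over roles, from the licensing genes Cdc6, Cdt1, Orc1, Mcm3, Mcm5, Mcm6 and Mcm7 to Pola1, Pold1, Pold3, Pole2, Rfc3, Gins3 and Lig1, and E2f2, E2f3 and E2f7 themselves. Of these 17, Mcm5, Mcm6 and Lig1 passed the threshold of the tests given below, and the others did not. The THAP11/ZNF143 word was held by 3 of the 42 (7.14%; Prim1, Lig1 and Fen1), against 1.69% of all these genes and 3.64% of the tested ones. Fen1 did not pass the threshold. The CCAAT box (CCAAT) was present in 27 (64.3%, against 41.1% and 42.9%). The ERR half-site TCAAGGTCA was in 0 of the 42, against 0.466% and 0.358% of genes, and the shorter AGGTCA, contained in it, was in 4 (9.52%, against 18.1% and 15.6%). These are matches of letters in a window and were not tested as binding sites.

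Libraries held 21.4 to 33.2 M counts. Esrra ran from 42.7 to 52.1 CPM (counts scaled to library size by TMM) in siC and from 8.65 to 20.5 in the 6 libraries that received its siRNA. Hcfc1 ran from 142 to 198 CPM in siC and from 66.2 to 126 in siHCFC1, a difference that missed the threshold (log2 -0.85, SE 0.260, edgeR adjusted p = 0.0668). In the combined knockdown it ran from 88.7 to 131 CPM (log2 -0.61 against siC, adjusted p = 0.182), which overlapped with the 109 to 182 CPM of siERRa (log2 -0.36, adjusted p = 0.531). Hepatocyte markers were present in all groups (Alb 3545 to 7449 TPM, Afp 992 to 2780 TPM), although Ttr stayed at or below 2.30 TPM and Ahsg at or below 0.988. The leukocyte gene Ptprc stayed at or below 0.0285 TPM. Transcripts of the mitochondrial chromosome took 2.37% to 14.5% of counts, with the lowest share in the libraries numbered 3 and the highest in those numbered 2 in every group.

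In control cells the most abundant RNA of the 51 per gene length was that of Pcna, the sliding clamp, at 153 ± 29.0 TPM (scaled for gene length and depth; SD, n = 3). Mcm7 at 147 ± 12.4 TPM, Mcm3 at 119 ± 12.8, the loader Cdt1 at 115 ± 15.8 and its inhibitor geminin (Gmnn) at 107 ± 7.76 TPM came next. Of the neighbours in this order, Mcm7 and Mcm3 differed by more than either SD, and each other pair by less than the larger of its SDs. Of the Mcm2 to Mcm7 ring, whose subunits act in equal numbers, Mcm6 had 88.3 ± 14.9 TPM, while Mcm2, Mcm5 and Mcm4 lay close together at 41.3 ± 5.58, 39.7 ± 6.76 and 32.0 ± 6.61 TPM (SD, n = 3 each). At the low end stood Orc1, the largest origin recognition subunit, at 5.41 ± 0.96 TPM, the polymerase ε subunit Pole2 at 3.68 ± 1.82 and the flap endonuclease Fen1 at 1.36 ± 0.426. Fen1 cannot be read as that enzyme's level, since 84.2% of its exon bases are also exon of Gm10143. Exon overlap or repeated sequence above 20% also made Gins2, Chaf1a, Mcm7, Orc2 and Pcna uncertain.

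After either knockdown most of the 51 genes lay below control, by small amounts, and few passed the threshold (edgeR quasi-likelihood test, Benjamini-Hochberg adjusted p under 0.05 over all 15965 genes). After siERRa 1 gene passed, Mcm6, which was lower. Of all tested genes 0.438% were called, 0.301% lower and 0.138% higher. After siHCFC1 5 passed, all lower: Prim1, Prim2, Lig1, Mcm5 and E2f1 (9.8% of the 51; all genes 6.68%, lower 4.22%, higher 2.46%). In the combined knockdown 4 passed, all lower: Mcm6, Prim1, Pold2 and E2f1 (7.84% of the 51; all genes 6.89%, lower 4.06%, higher 2.83%). The few calls leave these shares uncertain, and they were not tested against those of all genes. No gene of the 51 rose past the threshold in any comparison of this fit. The log2 change was below 0 for 34, 40 and 42 of the 51 in the same order, with medians of -0.12, -0.30 and -0.28, while 49.2%, 49.8% and 50.5% of all tested genes lay below 0. Without siERRa library 2, the siERRa values were 28 of the 51 and a median of -0.028. The 3 comparisons share the siC libraries. In bulk RNA, fewer cells in S phase and less RNA per cell cannot be told apart.

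**Figure D1:**
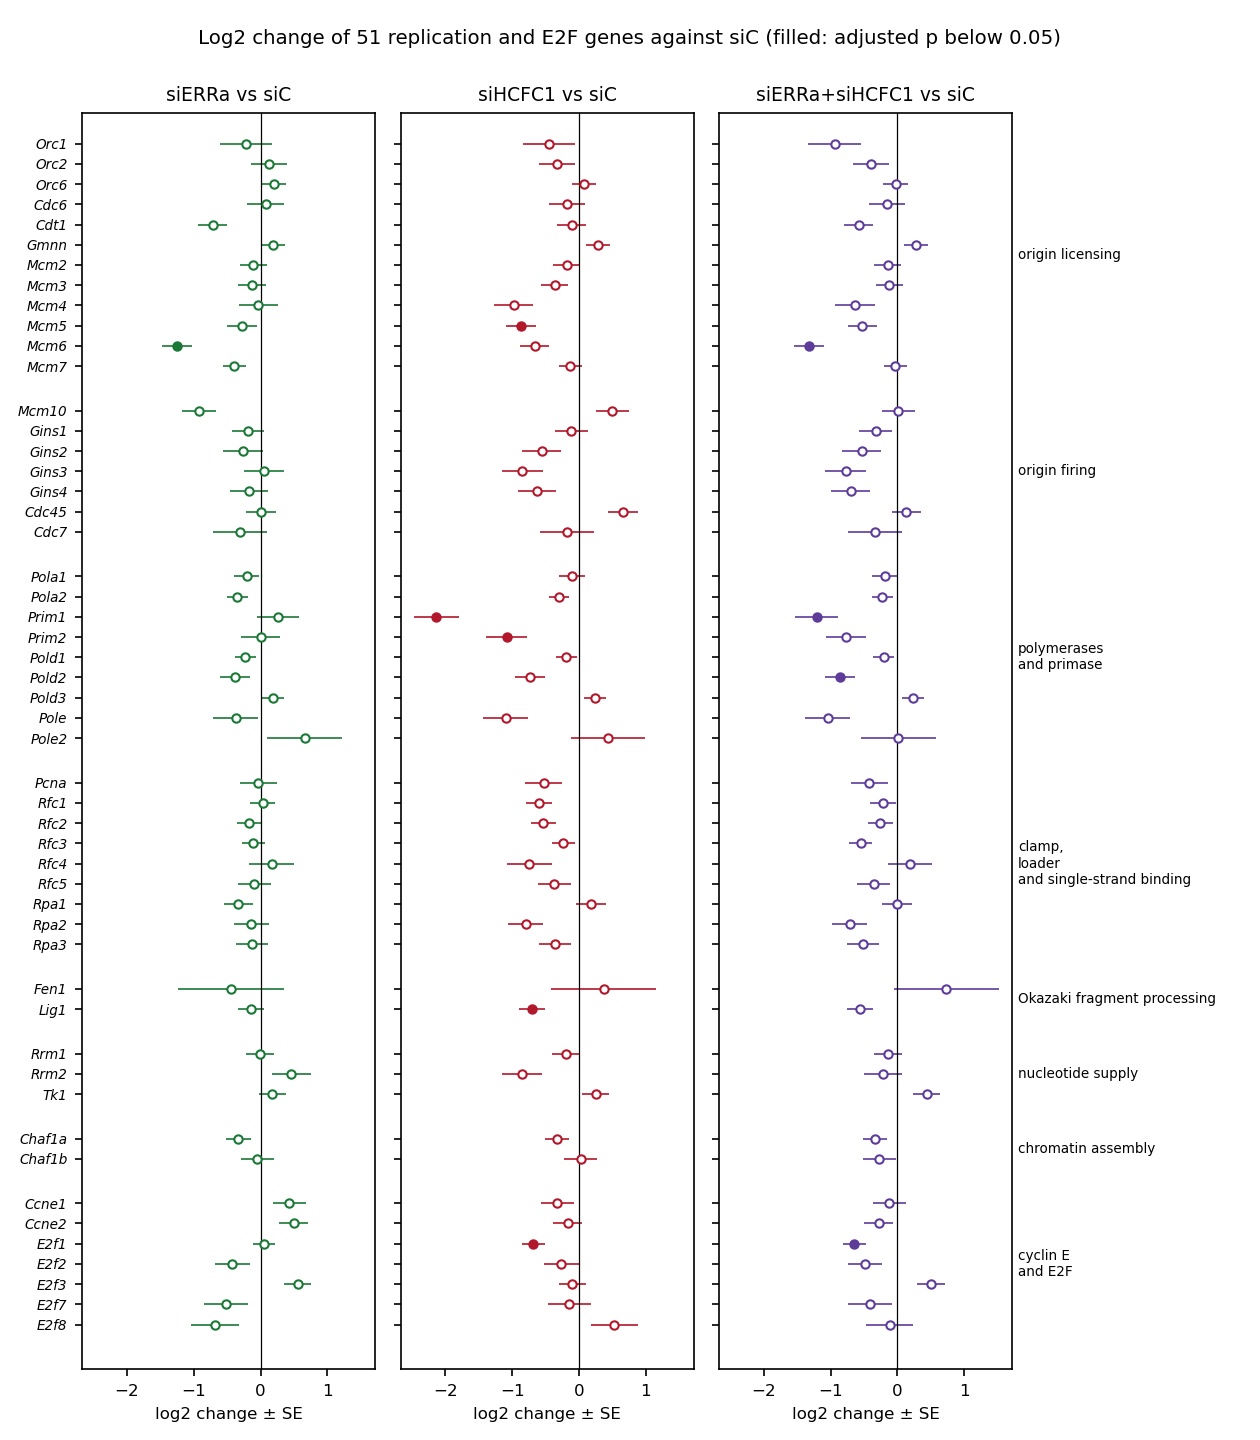
Log2 change against siC (x axis, ± SE from the edgeR fit) of each of the 51 genes (rows, grouped by role) after siERRa, siHCFC1 and both; filled points have an adjusted p below 0.05. Most points lie left of 0, with 1, 5 and 4 filled points, and the farthest left is Prim1 after siHCFC1 at -2.14.

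The ranges of the 3 libraries did not overlap with siC, counted in CPM, for 8 genes that were lower (15.7% of the 51) and 4 that were higher (7.84%) after siERRa. Over all genes the shares were 9.16% and 7.17%. After siHCFC1, 23 genes lay wholly below (45.1%) and 3 wholly above siC (5.88%), against 15.8% and 11.5% of all genes. In the combined knockdown 19 lay below (37.3%) and 2 above (3.92%), against 16.7% and 13.3%. A larger part of the 51 genes than of all genes was thus separated downwards in each of the 3 comparisons with siC, which share the siC libraries. This is a description with no test of its own. At an unadjusted p under 0.05 the counts were 7, 17 and 17 of the 51 genes, beside 10.3%, 21% and 21.1% of all tested genes. The mitochondrial share of counts was 3.21% to 10.3% in siHCFC1 and 2.37% to 6.54% in siC. The summed level of the 3 measured leukocyte markers, nearly all of it Cd68, was 166 to 225 TPM in siC, 109 to 151 in siERRa, 75.5 to 138 in siHCFC1 and 67.5 to 100 in the combined knockdown. That of the 3 cholangiocyte markers was 191 to 223, 197 to 258, 136 to 158 and 127 to 185 TPM in the same order. That of the 11 measured hepatocyte markers was 4875 to 7932, 8237 to 10411, 5965 to 8040 and 7354 to 9127 TPM. The part of these in the result was not tested.

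Of the 12 licensing genes, 8 lay below 0 after Esrra knockdown, and Mcm6 was the gene that passed the threshold. Mcm6 encodes a subunit of the replicative helicase and lies on chromosome 1, 128331590 to 128359664 of mm10. It stood at 147, 110 and 129 CPM in siC and at 61.4, 48.1 and 52.2 CPM in siERRa. With both siRNAs it stood at 49.2, 45.0 and 59.7 CPM, and with siHCFC1 at 101, 55.9 and 86.6 CPM. All libraries with Esrra siRNA lay far below control and did not overlap with it, and the siHCFC1 libraries also lay below control, library 2 within the range of the libraries with Esrra siRNA and libraries 1 and 3 above it. The fall was 2.39-fold in siERRa (log2 -1.26, SE 0.223, adjusted p = 0.0277), and with both siRNAs it was 2.51-fold (log2 change -1.33, SE 0.223, adjusted p = 0.00316). The siHCFC1 difference missed the threshold (log2 -0.67, SE 0.220, adjusted p = 0.0894). Adding Hcfc1 siRNA to Esrra siRNA gave -0.07 (SE 0.220), and adding Esrra siRNA to Hcfc1 siRNA gave -0.66 (SE 0.221, adjusted p = 0.524). The combined call held in all 6 fits that left out 1 library of the groups compared, and the siERRa call ended in all 6 (adjusted p 0.0519 to 0.136).

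The other ring subunits lay below 0 by less than Mcm6 after siERRa, and none passed the threshold. Their log2 changes were -0.04 for Mcm4, -0.11 for Mcm2, -0.13 for Mcm3, -0.28 for Mcm5 and -0.40 for Mcm7, with adjusted p of 0.426 or above. The ratio of Mcm6 to the mean of the other 5, both in TPM, was 1.22, 1.08 and 1.18 in siC and 0.574, 0.589 and 0.557 in siERRa. In the combined knockdown it was 0.504, 0.510 and 0.540, and in siHCFC1 1.08, 0.739 and 0.917. Relative to its mean, the ratio was thus tighter than the Mcm6 level within each of the 4 groups, with or without Esrra siRNA. No library with Esrra siRNA came near control. The ratio shows unequal change among the subunits, not that the others stayed the same. Mcm7 and Mcm3, the most abundant of the other 5 in siC, weigh most in their mean. Of Mcm7, 33.4% of 31-base words recur in other genes.

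**Figure D2:**
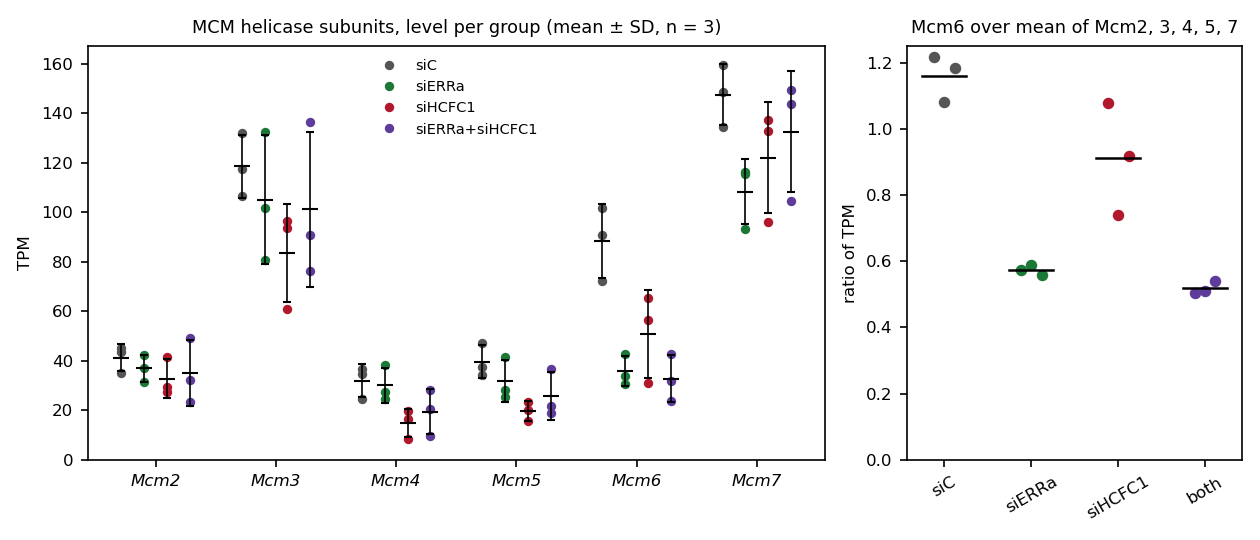
Left, TPM of the 6 helicase ring subunits in each library (points) with the group mean ± SD (n = 3); right, the ratio of Mcm6 to the mean of the other 5 subunits, with the group mean as a line. In the groups with Esrra siRNA the ratio lies between 0.504 and 0.589, below all siC values of 1.08 to 1.22.

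Mcm5, another ring subunit (chromosome 8, 75109569 to 75128439), was lowest after Hcfc1 knockdown. It stood at 58.4, 44.6 and 45.7 CPM in siC, at 26.7, 24.1 and 30.7 in siHCFC1, at 51.1, 37.8 and 33.5 in siERRa and at 28.7, 30.5 and 44.1 in the combined knockdown. Each siHCFC1 library lay below every siC library, and the combined libraries lay below control with the third just under its lowest. Mcm5 fell 1.82-fold after siHCFC1 (log2 -0.87, SE 0.223, adjusted p = 0.0326), and the call ended in all 6 fits without 1 library (adjusted p 0.0516 to 0.170). Its difference was -0.52 in the combined knockdown (adjusted p = 0.183). Mcm4 had a similar difference after siHCFC1 (log2 -0.98, SE 0.296) but missed the threshold (adjusted p = 0.0627). Its group mean was 35.8 ± 6.42 CPM in siC and 18.2 ± 5.79 in siHCFC1 (SD, n = 3 each).

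None of the loading factors upstream of the ring passed the threshold. Orc1, Orc2 and Orc6, subunits of the complex that marks origins, had differences of -0.45, -0.33 and 0.08 after siHCFC1 and of -0.94, -0.39 and -0.03 in the combined knockdown. Cdc6, which bridges that complex and Cdt1, lay at 0.07, -0.18 and -0.16 on the log2 scale after siERRa, siHCFC1 and both. Cdt1 was 105 to 127 CPM in siC and 52.0 to 81.3 in siERRa without overlap, yet its difference of -0.72 missed the threshold (adjusted p = 0.196), as did that of -0.58 in the combined knockdown. Geminin lay above 0 in all 3 comparisons, at 0.19, 0.28 and 0.27, again short of the threshold.

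None of the 7 firing genes passed the threshold against siC. Cdc45, which joins the ring to form the active helicase, had the largest rise of the 51 after siHCFC1 without passing. It stood at 10.9, 10.4 and 12.9 CPM in siC, 19.4, 17.4 and 17.1 in siHCFC1, 9.96, 9.91 and 14.3 in siERRa and 11.6, 11.5 and 14.3 in the combined knockdown. The siHCFC1 libraries lay above all others, and the combined libraries overlapped with control. The log2 difference was 0.66 (SE 0.221, adjusted p = 0.0939) after siHCFC1 and 0.13 in the combined knockdown. Mcm10, which binds the helicase and helps to start it, was 17.5 to 23.7 CPM in siC and 7.83 to 13.5 in siERRa without overlap (log2 -0.92, adjusted p = 0.148). With Hcfc1 siRNA alone it was 24.8 to 38.0 CPM (log2 0.50). Among the GINS subunits, Gins3 and Gins4 lay at -0.85 and -0.63 after siHCFC1 and at -0.78 and -0.70 in the combined knockdown, against 0.05 and -0.18 after siERRa. All of these missed the threshold. Cdc7, the kinase that triggers firing, ranged from 7.18 to 19.1 CPM with library 2 the highest in every group.

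The largest change of the 51 genes was in primase. Prim1, the catalytic subunit that lays down RNA primers (chromosome 10, 128015168 to 128030037), stood at 28.0, 23.1 and 23.3 CPM in siC. It stood at 9.11, 2.74 and 5.11 CPM in siHCFC1, at 13.1, 9.35 and 9.78 in the combined knockdown and at 33.4, 30.5 and 25 in siERRa. The siHCFC1 libraries were the lowest of all, the combined libraries came next, and neither group overlapped with siC or siERRa. Prim1 fell 4.40-fold after siHCFC1 (log2 -2.14, SE 0.336, adjusted p = 0.00218), and this call held in all 6 fits without 1 library, with log2 changes from -2.64 to -1.79. Without siHCFC1 library 1 the change was -2.64 and without library 2 it was -1.79. With both siRNAs Prim1 fell 2.31-fold from siC (log2 change -1.21, SE 0.324, adjusted p = 0.0378). From siERRa to both it fell 2.76-fold (log2 change -1.47, SE 0.326, adjusted p = 0.0255). The call against siC ended in all 6 fits without 1 library (adjusted p 0.0593 to 0.136). That against siERRa ended without siERRa library 1 or 2 or combined library 2 or 3 (adjusted p 0.0531 to 0.111). The combined level was 0.93 above that of siHCFC1 on the log2 scale (SE 0.329), which missed the threshold (adjusted p = 0.558).

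Prim2, the regulatory subunit of primase (chromosome 1, 33453810 to 33669795), stood at 28.8, 20.4 and 27.7 CPM in siC. It stood at 15.4, 9.52 and 11.4 CPM in siHCFC1, 18.0, 11.6 and 15.3 in the combined knockdown and 34.4, 14.6 and 27.8 in siERRa. Both groups with Hcfc1 siRNA lay below control without overlap, and siERRa spread across it, with library 2 lowest in each group. Prim2 fell 2.12-fold after siHCFC1 (log2 -1.09, SE 0.303, adjusted p = 0.0466). The call ended in all 6 fits without 1 library (adjusted p 0.0586 to 0.173). The combined difference was -0.77 (SE 0.300, adjusted p = 0.144). Pola1, the catalytic subunit of the polymerase that extends the primers, changed little by comparison, at -0.11 after siHCFC1 and -0.19 in the combined knockdown. The ratio of Prim1 to Pola1, in TPM, was 2.77, 2.41 and 2.41 in siC and 1.07, 0.274 and 0.583 in siHCFC1. It was 1.44, 1.15 and 1.15 in the combined knockdown and 3.75, 4.48 and 2.57 in siERRa. Pola2, the subunit that tethers primase and polymerase α, lay at -0.30 after siHCFC1 (adjusted p = 0.292).

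Of the polymerases that extend the strands, Pold2, the small accessory subunit of polymerase δ (chromosome 11, 5872180 to 5878292), fell in the combined knockdown. It stood at 53.3, 49.3 and 64.9 CPM in siC, at 31.9, 29.1 and 31.5 in the combined group, at 28.2, 32.7 and 39.98 in siHCFC1 and at 44.0, 29.3 and 54.9 in siERRa. The combined libraries lay close together below control, and siERRa overlapped with both. The fall was 1.81-fold (log2 -0.86, SE 0.226, adjusted p = 0.0347), and the call ended in all 6 fits without 1 library (adjusted p 0.0586 to 0.161). After siHCFC1 alone the difference was -0.73 (SE 0.225, adjusted p = 0.0681). The catalytic subunit Pold1 lay at -0.19 and the accessory Pold3 at 0.24 after siHCFC1. Pole, the catalytic subunit of the leading-strand polymerase ε, had the largest difference short of the threshold after siHCFC1 (log2 -1.10, adjusted p = 0.0702) and in the combined knockdown (log2 -1.05, adjusted p = 0.0813). Pole2 was at 4.87, 3.54 and 1.60 CPM in siC and 5.29, 5.55 and 4.96 in siERRa. It was at 3.45, 6.70 and 3.36 CPM in siHCFC1 and 3.96, 5.31 and 0.865 in the combined knockdown. Its difference of 0.66 after siERRa, the highest of the 51, carried an SE of 0.560, and the spread within siC was as wide as the differences.

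**Figure D3:**
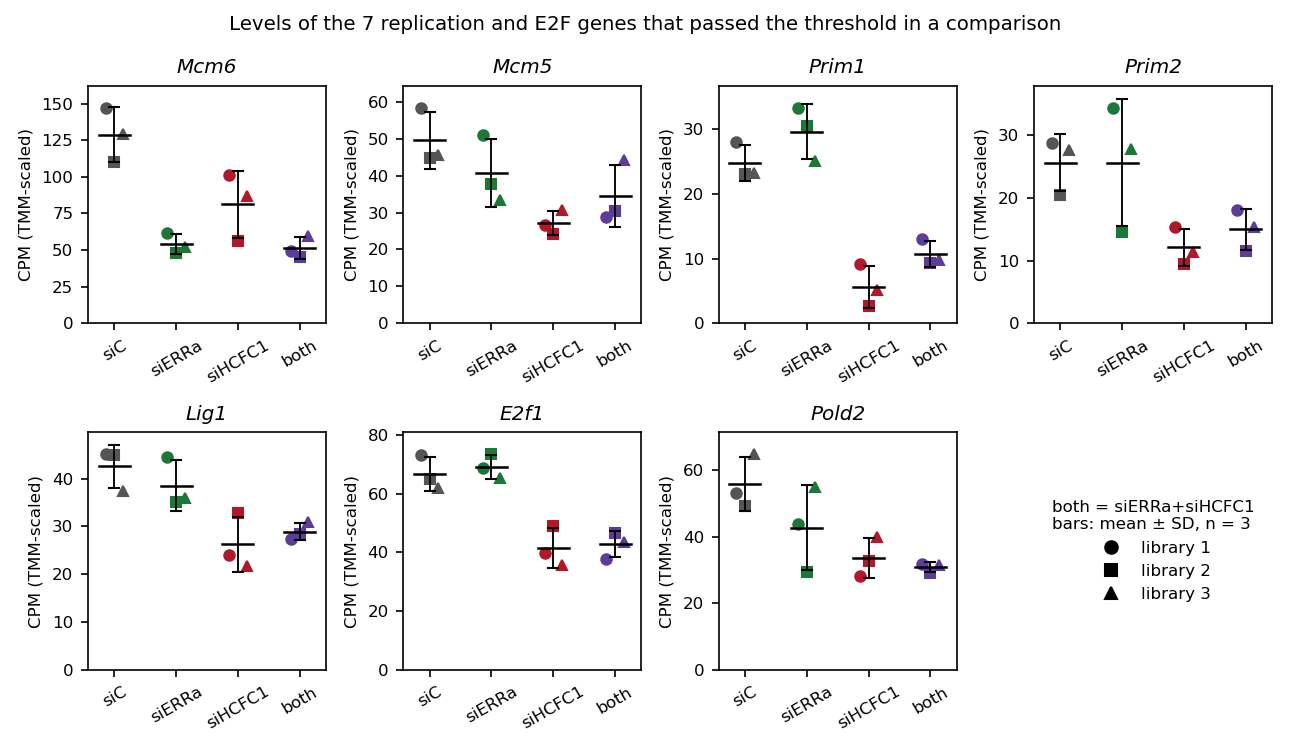
TMM-scaled CPM in each library (points, shape by library number) with the group mean ± SD (n = 3) for the 7 genes that passed the threshold in a comparison. Prim1, Prim2, Lig1, E2f1, Mcm5 and Pold2 lie below siC in both groups with Hcfc1 siRNA. Mcm6 is low in both groups with Esrra siRNA and also lies below siC in siHCFC1.

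None of the 9 clamp, loader and single-strand binding genes passed the threshold in a comparison of this fit. Their median log2 change was -0.11 after siERRa, -0.53 after siHCFC1 and -0.36 in the combined knockdown, and 8 of the 9 lay below 0 after siHCFC1. Pcna stood at 122, 93.5 and 127 CPM in siC, 76.1, 57.3 and 104 in siHCFC1, 85.2, 58.5 and 112 in the combined knockdown and 126, 77.6 and 131 in siERRa. The third library was highest and the second lowest in every group, and the groups overlapped (log2 -0.53 after siHCFC1, SE 0.279, adjusted p = 0.304). At each library number Pcna was lower in siHCFC1 and in the combined knockdown than in siC, while siERRa lay on either side. The labels do not say that a number pairs libraries. Of Pcna, 23.3% of 31-base words recur in other genes, most of them in Pcna-ps2. The loader subunit Rfc1 ran from 44.8 to 49.6 CPM in siC and from 29.6 to 31.9 in siHCFC1, a difference of -0.60 (adjusted p = 0.0827). Rpa2, a subunit of the single-strand binding trimer, lay at -0.80 (adjusted p = 0.0895). Its partners Rpa1 and Rpa3 lay at 0.18 and -0.36.

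Lig1, the ligase that seals Okazaki fragments (chromosome 7, 13277283 to 13311433), fell after Hcfc1 knockdown. It stood at 45.2, 45.1 and 37.5 CPM in siC, at 24.1, 32.8 and 21.8 in siHCFC1, at 27.5, 28.4 and 30.9 in the combined knockdown and at 44.6, 35.1 and 36.0 in siERRa. Both groups with Hcfc1 siRNA lay below siC and siERRa without overlap. The fall was 1.62-fold after siHCFC1 (log2 -0.70, SE 0.195, adjusted p = 0.0466). The call held without siHCFC1 library 2 (log2 -0.88, adjusted p = 0.0254) and ended in the other 5 fits without 1 library (adjusted p 0.0928 to 0.190). The combined difference was -0.56 (SE 0.195, adjusted p = 0.105). Fen1, which trims the fragments before ligation, was at 0.812, 1.46 and 0.840 CPM in siC and at 2.25, 0.584 and 2.33 in the combined knockdown. It was at 0.579, 1.496 and 0.230 CPM in siERRa and 1.15, 1.60 and 1.27 in siHCFC1. Its combined difference of 0.73 was the highest of the 51 and smaller than its SE of 0.785.

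For nucleotide supply and chromatin assembly no gene passed the threshold against siC. Rrm1, the large subunit of ribonucleotide reductase, stood at 152, 105 and 115 CPM in siC, 145, 107 and 117 in siERRa, 130, 87.2 and 107 in siHCFC1 and 120, 94.5 and 123 in the combined knockdown. The groups overlapped, with library 2 lowest in each. At each library number siHCFC1 lay below siC, while siERRa and the combined knockdown lay on either side. The small subunit Rrm2 was 22.4 to 24.5 CPM in siC and 9.14 to 18.5 in siHCFC1 without overlap (log2 -0.85, adjusted p = 0.101). Thymidine kinase (Tk1) lay above 0 in all 3 comparisons, at 0.18, 0.25 and 0.44. Chaf1a, the large subunit of the histone chaperone CAF-1, stood at 38.2, 39.6 and 42.6 CPM in siC and 36.0, 32.0 and 27.7 in siERRa. It stood at 35.8, 27.0 and 32.8 CPM in siHCFC1 and 36.3, 31.3 and 27.7 in the combined knockdown. All treated libraries lay below control, with differences of -0.33, -0.33 and -0.34 that missed the threshold, and 52.5% of the exon bases of Chaf1a are also exon of Ubxn6.

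Among the regulators E2f1 fell wherever Hcfc1 siRNA was given. E2f1, the activating factor of the G1 to S transition (chromosome 2, 154559407 to 154569892), stood at 73.4, 65.2 and 61.9 CPM in siC and 68.7, 73.5 and 65.3 in siERRa. It stood at 39.9, 48.9 and 35.8 CPM in siHCFC1 and 37.9, 46.7 and 43.7 in the combined knockdown. The 6 libraries with Hcfc1 siRNA lay below the 6 without it, and siHCFC1 overlapped with the combined group and siC with siERRa. The fall was 1.61-fold after siHCFC1 (log2 -0.69, SE 0.172, adjusted p = 0.0289) and 1.56-fold with both siRNAs (log2 change -0.64, SE 0.172, adjusted p = 0.0367). From siERRa to both it was 1.62-fold (log2 change -0.69, SE 0.172, adjusted p = 0.0412). The siHCFC1 call held without siHCFC1 library 2 (adjusted p = 0.0263) and ended in the other 5 fits without 1 library (adjusted p 0.0752 to 0.156). Both combined calls ended in all 6 (adjusted p 0.0707 to 0.174 against siC, 0.0715 to 0.136 against siERRa). The combined change less the sum of both single changes was -0.01 (SE 0.242).

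The other activators did not share this pattern. E2f3 was 26.7 to 35.3 CPM in siC, 39.4 to 50.8 in siERRa and 37.1 to 46.3 in the combined knockdown without overlap with control, and 21.2 to 33 in siHCFC1. Its differences of 0.56 and 0.50 in the groups with Esrra siRNA missed the threshold (adjusted p = 0.332 and 0.166). E2f2 lay at -0.42, -0.26 and -0.49 after siERRa, siHCFC1 and both. The repressor E2f8 lay at -0.68 after siERRa and 0.53 after siHCFC1, and its partner E2f7 at -0.52 and -0.14, within wide spreads between libraries. Of the cyclins that drive S phase entry, Ccne1 and Ccne2 lay at 0.43 and 0.50 after siERRa and at -0.33 and -0.17 after siHCFC1. Adding Hcfc1 siRNA to Esrra siRNA gave -0.78 for Ccne2 (adjusted p = 0.0671). None of these passed the threshold.

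Each siRNA was also given on 2 backgrounds, in pairs of groups that share no library. Adding Hcfc1 siRNA to Esrra siRNA lowered 2 of the 51 genes past the threshold, Prim1 and E2f1 (3.92% of the 51; all genes 3.24%, lower 1.84%, higher 1.41%), and raised 0. By DESeq2 3 were lower and 1 higher (all genes 617 lower and 564 higher of 15955). Without the filter on low counts 1 was lower and 1 higher (all genes 535 lower and 405 higher of 24326). By non-overlapping ranges 7 genes lay below siERRa and 2 above (all genes 11.4% and 9.78%). For Esrra siRNA added to Hcfc1 siRNA these counts were 1 below and 4 above (all genes 5.35% and 5.99%). Across the 51 genes, the log2 changes after siHCFC1 against siC and after both against siERRa had a Pearson r of 0.732 (Spearman 0.689), against 0.420 (Spearman 0.555) over all tested genes. They had the same sign for 40 of 51 (78.4%), against 73.5% of all tested genes. For Esrra siRNA, given alone or added to Hcfc1 siRNA, r was 0.501 (Spearman 0.387), against 0.202 (Spearman 0.329) over all genes. The sign was the same for 28 of 51 (54.9%), against 63.8%. These correlations run across genes, which are not independent replicates, and are given as a description. Adding Esrra siRNA to Hcfc1 siRNA moved 0 of the 51 past the threshold (all genes 0.00626%), with 7 at an unadjusted p under 0.05 (all genes 7.26%) and 0 by DESeq2 (all genes 0.614%). Mcm6 was among the lowest there at -0.66, and Prim1 among the highest at 0.93. The departure from additivity called 0 of the 51 and 0 of all genes, with 0 of the 51 at an unadjusted p under 0.05 (all genes 2.75%) and 0 called by DESeq2 (all genes 0.0313%). Its median over the 51 was 0.15, with 15 of them below 0, against 0.0086 and 49.2% for all genes. Mcm5, Mcm6 and Prim1, which passed the threshold in other comparisons, had departures of 0.62, 0.59 and 0.67 with SEs of 0.313, 0.311 and 0.456.

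**Figure D4:**
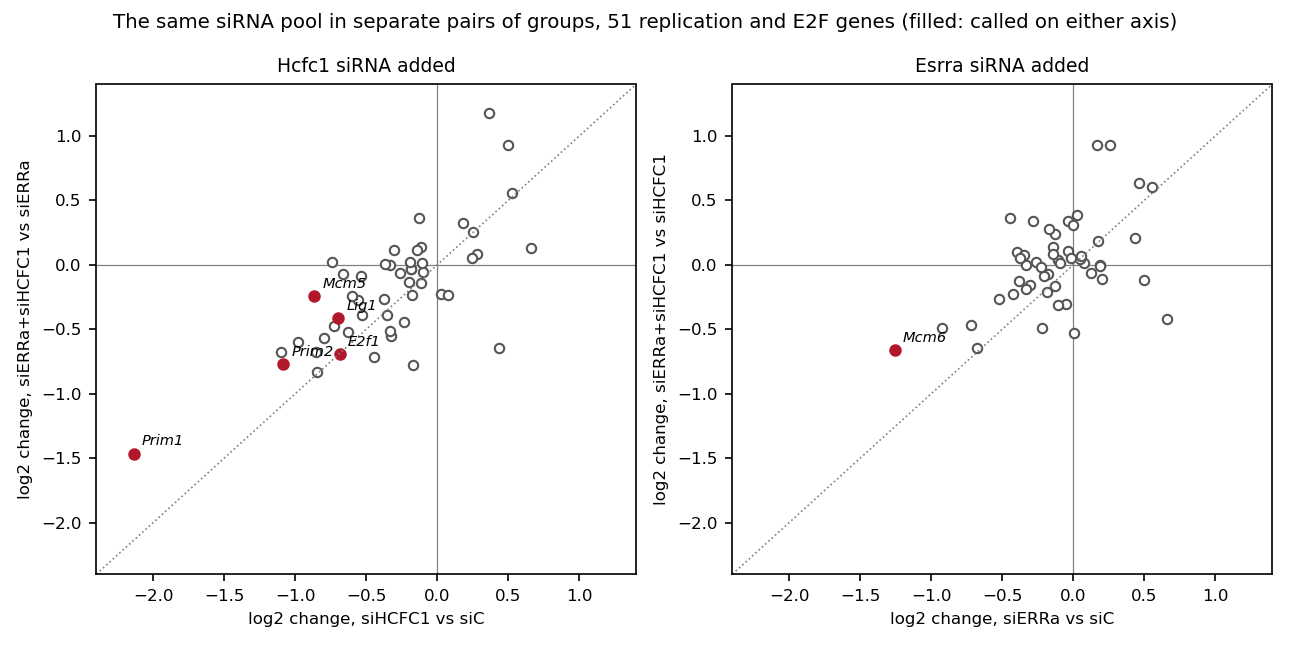
Log2 change of each of the 51 genes when the Hcfc1 siRNA (left) or the Esrra siRNA (right) was given against siC (x axis) and on top of the other siRNA (y axis), in pairs of groups with no library in common; the dotted line marks equal changes and filled points passed the threshold on either axis. Prim1 lies at -2.14 and -1.47 on the left, and Mcm6 at -1.26 and -0.66 on the right.

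Levels also moved with the library number, as they did over all genes. Library 2 was the lowest of its group in all 4 groups for 13 of the 51 genes (25.5%), against 16.4% of all tested genes. The 13 were Cdt1, E2f7, E2f8, Gins4, Mcm6, Mcm7, Orc2, Pcna, Prim2, Rfc2, Rpa1, Rpa2 and Rrm1. It was the highest in all 4 groups for 2 (3.92%, against 16.3% of all genes). Library 3 was the lowest for 4 (7.84%, against 9.06%) and the highest for 6 (11.8%, against 9.19%), and library 1 the highest for 3 (5.88%, against 2.32%) and the lowest for 0 (all genes 2.14%). Libraries numbered 2 also had the highest mitochondrial share of counts in each group, 6.54%, 10.1%, 10.3% and 14.5% in siC, siERRa, siHCFC1 and the combined knockdown. The part of that share in these levels was not tested. In a fit of libraries 1 and 2 only, the call that held was that of Mcm6 with both siRNAs (log2 change -1.43, adjusted p = 0.0468). Prim1 after siHCFC1 was then at -2.10 (adjusted p = 0.0535) and Mcm6 after siERRa at -1.22 (adjusted p = 0.301).

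The authors' deposited table of siHCFC1 against siC calls 7 of the 51 lower and 0 higher, at an adjusted p below 0.05: Prim1, Prim2, Mcm4, Mcm5, Pold2, Pole and E2f1. The authors' deposited table calls 4.06% of all genes lower there. The authors' deposited table of the combined knockdown against siC also calls 7 lower and 0 higher: Mcm6, Prim1, Prim2, Pold2, Pole, Cdt1 and E2f1, beside 4.97% of all its genes. In the authors' deposited tables Mcm6 is the gene called after siERRa (log2 -1.23; 0.759% of all genes called lower) and Prim1 the gene called for the combined knockdown against siERRa (log2 -1.45; 1.72%).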

How the data were processed

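RNA-seq counts of 12 libraries were analysed. Per the submitters' processing notes, reads were processed on mm10 with featureCounts 1.5.0-p3, with DESeq2 1.20.0 and with HISAT2 2.0.5. Per the labels' protocols, DNase-treated total RNA went into a library kit without strand marking. The authors deposited 5 tables of whole-number counts per gene with their own log2 fold changes and adjusted p-values, and a table of TPM. The count tables were merged: 377781 shared cells differed in 0 cases, and 5451 blanks were set to 0. The 60 per-sample FPKM and normalized columns were not used here. The 4 deposited TPM columns numbered 4 matched library 3 of their group (r rounded to 1 over 10174 genes, next highest 0.653). No 2 libraries of a group were copies (lowest chi-square per degree of freedom 44.1).

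edgeR 4.0.16 in R 4.3.3 (TMM, filterByExpr, glmQLFit, glmQLFTest) was fitted to all 15965 genes with 1 mean for each of 4 groups (8 residual degrees of freedom). SEs come from that fit. The code was also run on counts simulated from the fit's own spread. These held no effect of the library number, so that run cannot show how such an effect bears on the calls. The departure is the combined change less the sum of the single ones. The genes and lists were chosen with earlier results of these data known. Values per library are given for genes that passed the threshold, for the largest rise and fall in each comparison with siC and for the gene with the highest TPM of a role otherwise unnamed; other genes named were chosen after their values were seen. Alternatives were DESeq2 1.42.0, RLE scaling, no filter, the 2 groups alone, a replicate block, limma 3.58.1 on log2(TPM + 0.5) and log2(TPM + 0.1), and leaving out libraries.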

Additional observations from a re-analysis of the deposited data

How the results depend on the processing

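Counts of the 51 genes past the threshold moved with the setting, while the medians of the 3 comparisons with siC stayed below 0 in each. For siERRa the median came close to that of all genes without siERRa library 2. It was then -0.028, with 28 of the 51 below 0, against -0.019 and 51.4% below 0 for all genes. For siERRa against siC (1 gene), DESeq2 called 2, limma on TPM 0 at either pseudocount and the fit without the libraries numbered 3 called 0. For siHCFC1 against siC (5), DESeq2 called 11 (10 lower and Cdc45 higher), RLE scaling 3, the 2 groups alone 3, limma 3 at either pseudocount and the fit without the libraries numbered 3 called 0. For the combined knockdown against siC (4), limma with a pseudocount of 0.1 called 2 and the fit without the libraries numbered 3 called 1. Against siERRa (2 lower), DESeq2 called 4 (3 lower and 1 higher), the fit without the filter 1 lower and 1 higher, the 2 groups alone 1, limma 1 at either pseudocount and the fit without the libraries numbered 3 called 0. Leaving out 1 library gave 0 to 0, 1 to 3, 1 to 1 and 0 to 1 genes in these 4 comparisons. Against all genes, DESeq2 called 395, 1865, 1899 and 1181 where edgeR called 70, 1066, 1100 and 518, and without the libraries numbered 3 the counts were 1, 259, 269 and 62. Without the filter 313 genes were called after siERRa and 940 for the combined knockdown against siERRa, and with the 2 groups alone 26 and 243. After siHCFC1 RLE scaling called 1004 of 15965 genes and the 2 groups alone 840 of 14522. By limma on log2(TPM + 0.1) 19, 821, 872 and 306 genes were called in the 4 comparisons. On log2(TPM + 0.5) 856 were called after siHCFC1 and 356 for the combined knockdown against siERRa. On log2(TPM + 0.5) 22 genes were called after siERRa, and the median of all genes shifted to -0.15 and -0.14 after siHCFC1 and both, where the median of the 51 was -0.45 and -0.41. There the split of called genes was 168 higher and 688 lower after siHCFC1, against 393 and 673. DESeq2 split them 865 higher and 1000 lower. The causes were not tested.

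A replicate block for the library number called 6, 19, 16, 15 and 4 of the 51 genes in the 5 pairwise comparisons (5, 17, 15, 13 and 2 of them lower), out of 1625, 3974, 4067, 3191 and 562 genes (10.2%, 24.9%, 25.5%, 20% and 3.52%). The labels do not say that the number marks a shared batch. Deviations from the group means correlated between same-numbered libraries at 0.0326 to 0.373, with 12 of 18 pairs over 0.1 and all 6 pairs between libraries numbered 1 at or under it. Pairs with different numbers ran from -0.329 to 0.0696, and 12 of 12 libraries correlated best with a same-numbered one, a hint from the data and not the design.

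Of the 13 genes with values per library, over 41 gene and comparison pairs, 441 alternative values kept their direction and side of the threshold, 88 lost the call, 12 gained it and 33, none of them a call, changed sign. Prim2 after siERRa was 0.0228 by DESeq2, 0.0229 with RLE scaling, 0.0150 without the filter, 0.0065 with the 2 groups alone, 0.0062 without the libraries numbered 3 and -0.272 to 0.287 without 1 library. Rrm1 after siERRa was 0.0125 by DESeq2 and with RLE scaling, 0.0032 without the filter and 0.0265 to 0.160 without 1 library, and -0.238 to 0.0331 in the combined knockdown, above 0 without siC library 1. Pcna after siERRa was -0.156 to 0.179 without 1 library. Pole2 in the combined knockdown was -0.0964 with the replicate block, -0.252 and -0.313 on TPM with 0.5 and 0.1, and -0.461 to 0.472 without 1 library. Cdc45 after siERRa was -0.0058 with the block, -0.0606 and -0.0633 on TPM, -0.0807 without the libraries numbered 3 and -0.190 to 0.109 without 1 library, and in the combined knockdown -0.0029 and -0.0038 on TPM.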

Other observations

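Other genes of replication and the G1 to S transition, a list of 62 written from general knowledge with earlier results known, had 60 members tested. After siERRa 1 was called (all genes 0.438%), Mybl2, a transcription factor of late S phase, which fell from 34.2 ± 2.47 TPM in siC to 12.4 ± 4.59 (SD, n = 3 each; log2 -1.42, SE 0.242, edgeR adjusted p = 0.0242). Mybl2 was also lower after siHCFC1 (log2 -1.09, adjusted p = 0.0148) and with both siRNAs (log2 -1.46, adjusted p = 0.00303). After siHCFC1 5 of the 60 were called lower and 0 higher, beside a background of 4.22% lower. The largest fall was in Rnaseh2c, a subunit of the ribonuclease that removes RNA from DNA, from 69.6 ± 12.3 TPM in siC to 17.7 ± 4.25 (log2 -1.84, SE 0.210, adjusted p = 0.000220). Its catalytic partner Rnaseh2a lay at -1.01 (adjusted p = 0.0314). The helicase Mcm8, which acts in recombination, lay at -1.20 (adjusted p = 0.0088), and the checkpoint adaptor Clspn at -0.93 (adjusted p = 0.0339). In the combined knockdown 6 were lower and 1, the ubiquitin ligase subunit Fbxw7, was higher (log2 0.86, adjusted p = 0.0378), beside 4.06% of all genes lower and 2.83% higher. The 6 were Mybl2, Rnaseh2a (log2 -1.37), the histone chaperone Asf1b (log2 -1.25), Mcm8 (log2 -1.24), Rnaseh2c (log2 -1.12) and E2f5 (log2 -0.68). Against siERRa Rnaseh2c was the gene called (log2 -0.93, adjusted p = 0.0244; all genes 3.24%), against siHCFC1 0 were, and the departure from additivity called 0. The median log2 change of the 60 was -0.14, -0.18 and -0.39 after siERRa, siHCFC1 and both.

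Over all tested genes with a matched RefSeq promoter, the THAP11/ZNF143 word was held by 65 of 518 genes lower after siHCFC1 (12.5%), by 13 of 280 that were higher (4.64%) and by 387 of 10628 in all (3.64%). Among genes lower in the combined knockdown it was held by 48 of 508 (9.45%), and among the 36 matched genes lower after siERRa by 0. The E2F words were in 38 of the 518 (7.34%) and 7 of the 280 (2.5%), against 473 of 10628 (4.45%). In the combined knockdown they were in 27 of 508 lower genes (5.31%) and 14 of 323 higher ones (4.33%). After siERRa they were in 2 of 36 lower genes (5.56%) and 2 of 18 higher ones (11.1%). These shares are a description of letters in the promoter windows, and no test was made of them.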
